A study of Mus musculus with 48 samples.

Results

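Bulk RNA-seq of the substantia nigra (SN) from 48 mice was divided by the level of *Th* in each animal, and the other genes were compared between the mice that were high and the mice that were low. *Th* encodes tyrosine hydroxylase, the rate-limiting enzyme of dopamine synthesis. Each of the 4 groups held 12 mice. Within each group, the 6 mice with the highest *Th* in TPM, a level corrected for gene length and depth, were taken as high *Th* mice and the 6 with the lowest as low *Th* mice, which gave 24 high and 24 low *Th* mice of 48 in all. The members were thus chosen by their measured *Th*, so *Th* itself is described here without a test. All animals were male C57Bl/6J mice that had received a striatal injection on one side, the right side per the methods. The injected protein was alpha-synuclein, either as preformed fibrils (PFF) or as monomer, and the cages were then held at 21% or 11% O2. The groups are called monomer 21% O2, PFF 21% O2, monomer 11% O2 and PFF 11% O2. The sources differ on the time at 11% O2, which is 12 weeks in one and 6 weeks, after 6 weeks at 21% O2, in the other. The mice were 30.1 to 31.3 weeks old at harvest, 90 to 98 days after the injection. No uninjected animals were among the groups, so every mouse carried injected alpha-synuclein of one form. From the labels it cannot be said from which side of the brain the tissue was taken. Harvest fell into 3 batches by date.

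Dopaminergic (DA) neurons of the SN pars compacta make dopamine from tyrosine with *Th* and *Ddc*, load it into vesicles through *Slc18a2* (the vesicular monoamine transporter) and take it back up through *Slc6a3* (the dopamine transporter). Their axons run to the striatum, and their loss underlies the motor signs of Parkinson's disease. They lie beside the GABA neurons of the pars reticulata, the DA neurons of the ventral tegmental area and other nuclei of the midbrain, and are surrounded by glia and vessels. In bulk tissue, fewer DA neurons and less RNA of a gene per neuron cannot be told apart, nor can either be told from a different share of neighbouring tissue in the piece that was cut. DA neuron markers were present in all 48 libraries, as the label of the tissue implies, and the lowest *Th* level was 62.6 TPM.

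*Th* (chromosome 7, 142892752 to 142931128, minus strand, GRCm38) ranged 18.4-fold over the 48 mice. Its lowest, median and highest levels were 506, 763 and 1153 TPM in the high *Th* mice (mean 764 ± 155, SD, n = 24) and 62.6, 370.2 and 561 TPM in the low *Th* mice (mean 351 ± 133, SD, n = 24). By group, the high *Th* mice spanned 563 to 1153 TPM (median 815) in monomer 21% O2 mice, 581 to 885 TPM (median 732) in PFF 21% O2 mice, 506 to 1014 TPM (median 738) in monomer 11% O2 mice and 629 to 866 TPM (median 796) in PFF 11% O2 mice. The low *Th* mice of the same groups spanned 191.1 to 494 (median 363), 185.2 to 561 (median 444), 62.6 to 441 (median 269.7) and 349 to 470.1 TPM (median 399). The line between high and low was therefore drawn at different levels. The mice just inside and just outside it lay at 563 and 494 TPM in monomer 21% O2, at 581 and 561 TPM in PFF 21% O2, at 506 and 441 TPM in monomer 11% O2 and at 629 and 470.1 TPM in PFF 11% O2 mice. The closest such pair was in PFF 21% O2 mice, and the widest gap was in PFF 11% O2 mice.

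**Figure D1:**
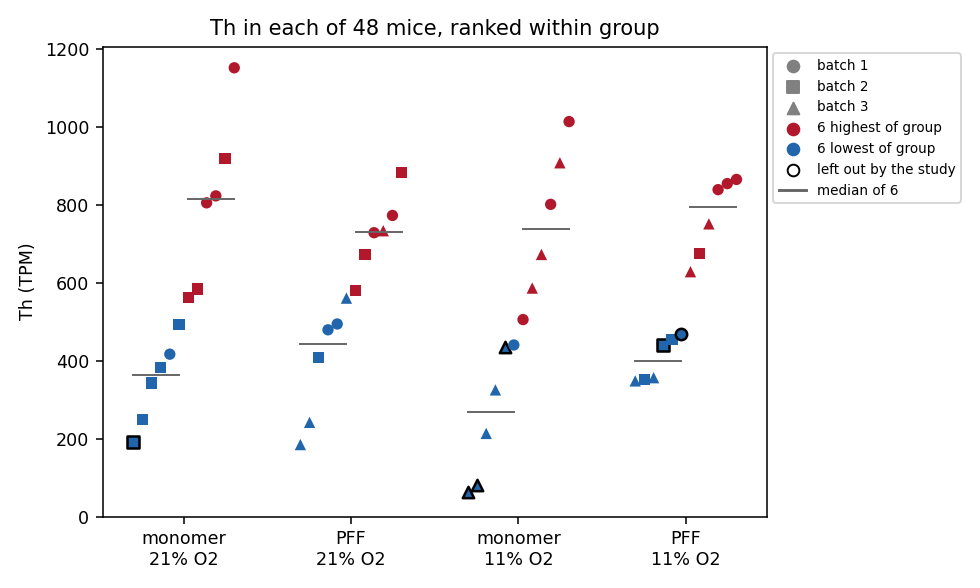
*Th* level of each mouse in TPM (y axis, from 0) by group (x axis); red points are the 6 highest and blue points the 6 lowest mice of each group, circles, squares and triangles are batches 1, 2 and 3, grey lines are medians of 6 and a black outline marks the 6 mice left out. The low *Th* mice spread from 62.6 to 561 TPM, and all 6 outlined mice are among them.

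Properties other than the group were spread unevenly over the division. Of the high *Th* mice, 11 were from batch 1, 7 from batch 2 and 6 from batch 3, against 5, 9 and 10 of the low *Th* mice, so batch was a term of the main tests across genes. The batch-corrected table, on which the study's own analysis rested, holds 42 of the mice. The other 6, called the mice left out, were all low *Th* mice (2 of PFF 11% O2, 3 of monomer 11% O2 and 1 of monomer 21% O2). The methods give them as outliers of a principal component analysis, and the main tests here keep them. Results that rest on them are given with and without them. Total counts were 12902996 to 17120921 in 47 libraries and 3134594 in 1 of the mice left out (PFF 11% O2, replicate 2). The mean difference between high and low *Th* mice, taken over all 48, was 265504 total counts, -0.18 percentage points of counts on mitochondrial genes, -0.19 percentage points on the 10 most counted genes and 279.8 genes with a count. None of these 4 differences passed a permutation test within groups (2-sided, adjusted p = 0.763, 0.467, 0.275 and 0.275).

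Across all genes, 819 of 18157 tested (4.51%) were higher and 968 (5.33%) were lower in high than in low *Th* mice. The test was edgeR's quasi-likelihood test with group and batch in the model, and a gene was called at a Benjamini-Hochberg adjusted p below 0.05 with a log2 fold change beyond 0.25. The median log2 fold change over all genes tested was -0.0079, and positive values mean higher in high *Th* mice throughout. Without the 6 mice left out, 779 genes were called higher and 450 lower, so the share called higher was 63.4% in place of 45.8%. On the log2(TPM + 1) scale with limma, 829 were called higher and 522 lower (61.4% higher). The lower calls thus depended on those 6 mice and on the scale more than the higher calls did. All tests use the spread between single animals.

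The other genes that define dopamine content followed *Th*. For *Slc6a3* (chromosome 13, 73536747 to 73578672, plus strand), the levels (lowest, median and highest) were 944, 1253 and 1951 TPM in the 24 high *Th* mice and 115, 661 and 1087 TPM in the 24 low *Th* mice. The log2 fold change was 0.95 (SE 0.143, edgeR adjusted p = 4.23e-06). The low end, median and high end of *Slc18a2* were 250.4, 381 and 620.1 TPM in the 24 high *Th* mice and 29.8, 182.3 and 310.1 TPM in the 24 low *Th* mice (chromosome 19, 59260896 to 59296012, plus strand). Its log2 fold change was 0.99 (SE 0.143, edgeR adjusted p = 2.34e-06). For *Ddc*, which encodes the decarboxylase that acts after *Th* (chromosome 11, 11814101 to 11898144, minus strand), the lowest, median and highest levels were 325, 468 and 683 TPM in the 24 high *Th* mice and 60.2, 255 and 406 TPM in the 24 low *Th* mice. The log2 fold change was 0.84 (SE 0.120, edgeR adjusted p = 2.34e-06). For all 3 genes the high and low *Th* mice did not overlap in either group at 11% O2 and overlapped in both groups at 21% O2. Of 18157 genes tested, 16957 overlapped in every group. The difference at 11% minus that at 21% O2, given below, did not pass the test for *Slc6a3*, *Slc18a2* or *Ddc* (edgeR adjusted p = 0.906, 0.854 and 0.879).

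The difference had the same sign in every batch and every group. For *Slc6a3* it was 0.68, 0.85 and 1.29 in batches 1, 2 and 3 on the log2 scale, for *Slc18a2* 0.74, 0.83 and 1.42 in batches 1, 2 and 3, and for *Ddc* 0.58, 0.72 and 1.19 in batches 1, 2 and 3. By group, that of *Slc6a3* was 0.92 in monomer 21% O2, 0.72 in PFF 21% O2, 1.36 in monomer 11% O2 and 0.78 in PFF 11% O2 mice. The values of *Slc18a2* were 0.88 in monomer 21% O2, 0.77 in PFF 21% O2, 1.55 in monomer 11% O2 and 0.79 in PFF 11% O2 mice, and those of *Ddc* were 0.81 in monomer 21% O2, 0.64 in PFF 21% O2, 1.28 in monomer 11% O2 and 0.62 in PFF 11% O2 mice. Monomer 11% O2 mice had the largest difference for each of the 3 genes, and also held the mouse with the lowest *Th* (62.6 TPM). Without the 6 mice left out, the log2 fold changes were 0.83, 0.90 and 0.76.

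The promoters of these 4 genes are shown because the genes moved together from mouse to mouse. Sequences are from RefSeq (GRCm38.p6), from 250 bases before to 20 bases after the annotated start, 5′ to 3′ on the strand of the gene. All 4 symbols matched the RefSeq table, and *Ddc* has 2 starts, of which the first is printed. Capitals mark letters of the motifs searched on both strands, which were TGACGTCA (the cyclic AMP response element), AAAGGTCA (a site of NR4A factors), TAATTA (a homeodomain core), TGTTTAC (a FOXA core) and TATAAA (the TATA box).
Th, chr7:142899976-142900245, minus strand: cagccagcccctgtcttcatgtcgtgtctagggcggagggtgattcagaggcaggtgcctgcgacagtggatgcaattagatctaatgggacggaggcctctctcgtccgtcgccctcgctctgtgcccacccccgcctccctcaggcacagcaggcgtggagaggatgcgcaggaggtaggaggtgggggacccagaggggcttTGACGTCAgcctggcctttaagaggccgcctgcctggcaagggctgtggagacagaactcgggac
Slc6a3, chr13:73536497-73536766, plus strand: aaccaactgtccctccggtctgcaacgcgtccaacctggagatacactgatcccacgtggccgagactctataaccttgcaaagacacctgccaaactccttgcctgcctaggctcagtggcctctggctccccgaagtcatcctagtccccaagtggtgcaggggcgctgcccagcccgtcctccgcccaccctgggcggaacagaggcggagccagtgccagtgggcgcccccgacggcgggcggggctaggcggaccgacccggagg
Slc18a2, chr19:59260628-59260897, plus strand: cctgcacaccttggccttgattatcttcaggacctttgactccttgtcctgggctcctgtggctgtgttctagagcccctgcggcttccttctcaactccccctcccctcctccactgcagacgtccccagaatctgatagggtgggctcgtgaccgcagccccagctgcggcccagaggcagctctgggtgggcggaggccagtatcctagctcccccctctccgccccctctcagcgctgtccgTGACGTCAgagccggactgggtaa
Ddc, chr11:11898125-11898394, minus strand: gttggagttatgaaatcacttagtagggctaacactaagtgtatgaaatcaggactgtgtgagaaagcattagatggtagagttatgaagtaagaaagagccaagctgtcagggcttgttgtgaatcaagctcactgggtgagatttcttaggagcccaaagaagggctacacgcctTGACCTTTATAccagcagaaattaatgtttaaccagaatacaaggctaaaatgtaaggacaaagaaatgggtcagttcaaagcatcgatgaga
Positions count from the first transcribed base as 1, with no 0. TGACGTCA lay at positions -45 to -38 from the start of *Th* and at -4 to 4 from that of *Slc18a2*, and 1.73% of 32851 mouse promoter windows of this length hold it. In *Ddc*, AAAGGTCA was on the other strand at -73 to -66 and overlapped TATAAA, also on the other strand, at -68 to -63. Of all windows, 1.42% hold AAAGGTCA, 12.9% TATAAA, 5.01% TAATTA and 3.38% TGTTTAC. No searched motif was in the window of *Slc6a3* or in that of the second start of *Ddc*. The 4 windows had no motif in common. A match is a description of the letters.

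From mouse to mouse, the 3 genes followed *Th* closely after the means of group and batch had been subtracted. Over 48 mice, Pearson's r and Spearman's rho with *Th* on the log2(TPM + 1) scale were 0.990 and 0.988 for *Slc6a3*, 0.987 and 0.982 for *Slc18a2* and 0.988 and 0.984 for *Ddc* (permutation within group and batch, 2-sided, adjusted p = 1e-05 over the 3 genes, the smallest that 100000 permutations give). Within batches, r was 0.955 to 0.998 for *Slc6a3*, 0.969 to 0.995 for *Slc18a2* and 0.981 to 0.991 for *Ddc*. Without the 6 mice left out, it was 0.986, 0.978 and 0.981. Without the 2 mice farthest from the median of *Th*, both monomer 11% O2, it was 0.983, 0.978 and 0.982. The relation thus did not rest on the extreme animals.

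**Figure D2:**
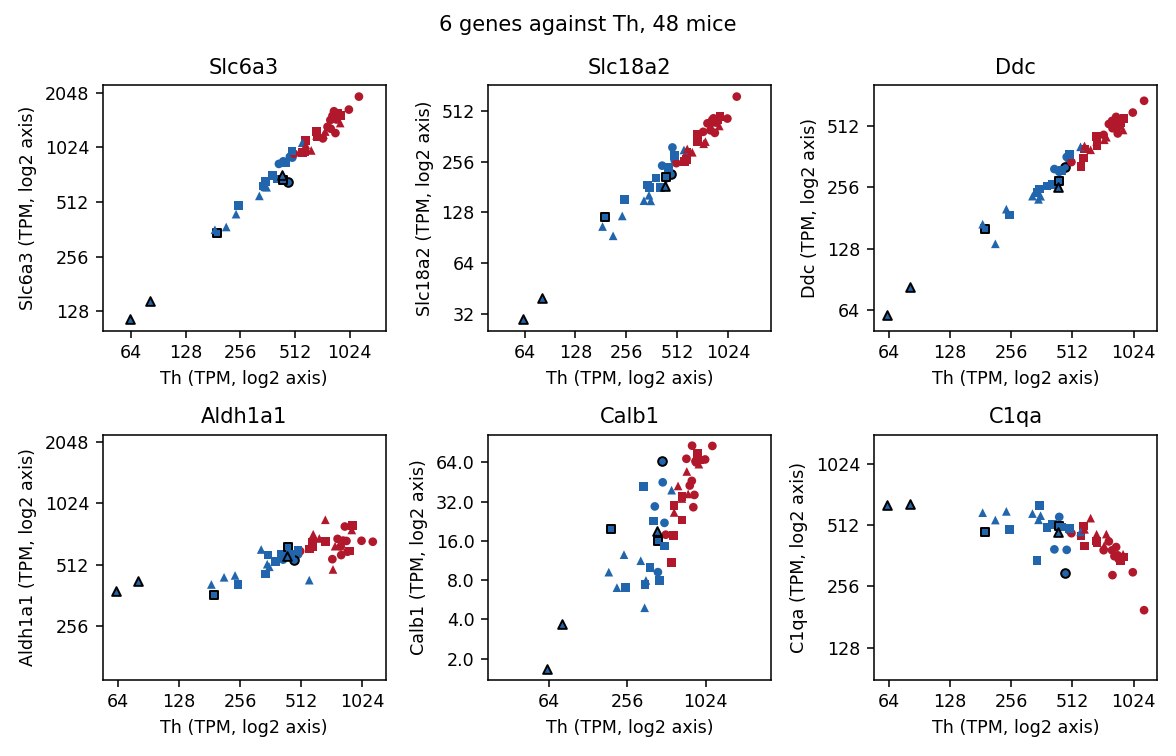
Levels of 6 genes (y axes) against *Th* (x axes) in the 48 mice, both in TPM on log2 axes, with high *Th* mice in red, low *Th* mice in blue, circles, squares and triangles for batches 1, 2 and 3 and a black outline for the 6 mice left out. *Slc6a3*, *Slc18a2* and *Ddc* rise along one line with *Th*, *Calb1* scatters widely, *Aldh1a1* rises less (0.27 per doubling of *Th*) and *C1qa* falls in the mice with more *Th*.

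Among 19814 genes with a mean of at least 1 TPM, the 8 whose residual levels were most like that of *Th* over the 48 mice were *Slc10a4* (r = 0.990), *Slc6a3* (0.990), *Ddc* (0.988), *Slc18a2* (0.987), *Ret* (0.987), *Fam167a* (0.986), *Ntsr1* (0.984) and *Chrnb3* (0.984). These mice share libraries and dissections, and the values are a description with no test. *Fam167a* is the 1 gene of the 8 that was in no list of DA neuron genes. The levels of *Fam167a* (lowest, median and highest) were 20.3, 29.7 and 52.0 TPM in the 24 high *Th* mice and 2.26, 13.1 and 24.2 TPM in the 24 low *Th* mice. Its log2 fold change was 1.11 (SE 0.139, edgeR adjusted p = 4.03e-07), beside 0.95 for *Slc6a3* and 0.99 for *Slc18a2*.

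Of all genes tested, 4.51% were called higher. All 5 other genes for the synthesis, storage and uptake of dopamine were called higher, with a median log2 fold change of 0.99 beside -0.0079 over all genes. Besides *Slc6a3*, *Slc18a2* and *Ddc* these were *Gch1*, the first enzyme of the synthesis of the *Th* cofactor tetrahydrobiopterin, and *Slc10a4*, a carrier protein found on monoamine vesicles. The low end, median and high end of *Gch1* were 9.53, 19.8 and 32.5 TPM in the 24 high *Th* mice and 2.07, 7.19 and 13.9 TPM in the 24 low *Th* mice. Its log2 fold change was 1.15 (SE 0.131, edgeR adjusted p = 1.60e-07), and it was 0.99 for *Slc10a4*. When *Th* was used as a continuous measure, the log2 change per doubling of *Th* was 0.94 for *Slc6a3*, 0.95 for *Slc18a2*, 0.78 for *Ddc*, 0.95 for *Gch1* and 0.98 for *Slc10a4*. A value of 1 would mean a change in proportion to *Th*.

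All 8 receptors and channels of DA neurons were higher (median 1.01), against 4.51% of all genes tested. They were *Drd2* (0.79), *Ret* (1.03), *Chrna6* (1.05), *Chrnb3* (1.04), *Ntsr1* (1.09), *Gucy2c* (1.00), *Kcnj6* (0.87) and *Gfra1* (0.30), with log2 fold changes in parentheses. *Drd2* is the dopamine autoreceptor, *Ret* the signalling receptor for glial cell line-derived neurotrophic factor, *Chrna6* and *Chrnb3* are nicotinic receptor subunits, *Ntsr1* is a neurotensin receptor and *Kcnj6* a potassium channel subunit. The lowest, median and highest levels of *Ret* were 145, 228 and 377 TPM in the 24 high *Th* mice and 22.9, 119 and 233 TPM in the 24 low *Th* mice. In 3 of 4 groups the levels of *Ret* did not overlap between high and low *Th* mice, as in 20 of 18157 genes tested. *Gfra1*, the coreceptor of *Ret* that other midbrain neurons also express, had the smallest difference of the 8, with 81.1 to 123.1 TPM in the high and 38.3 to 112 TPM in the low *Th* mice, and it was not called without the 6 mice (0.19). Counting did not use strand, and *Kcnj6* shares 380 of its 7633 exon bases with *Gm41505* on the opposite strand (mean 9.27 TPM for *Kcnj6* and 20.6 TPM for *Gm41505*).

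Of 8 transcription factors that specify or maintain DA neurons, 7 were higher (median 0.98), against 4.51% of all genes tested. *Lmx1a*, which specifies midbrain DA progenitors, had the largest log2 fold change, 1.49 (SE 0.237, edgeR adjusted p = 1.05e-05). Its levels (lowest, median and highest) were 1.97, 8.60 and 19.0 TPM in the 24 high *Th* mice and 0.323, 2.28 and 12.2 TPM in the 24 low *Th* mice. The others were *Foxa2* (1.15), *Foxa1* (1.07), *Lmx1b* (1.00), *Pitx3* (0.97), *Nr4a2* (0.85) and *En1* (0.61). *Nr4a2* (Nurr1) is required for *Th* expression, with 32.2 to 88.0 TPM in the high and 6.71 to 47.6 TPM in the low *Th* mice. *En2* differed by 0.19 (edgeR adjusted p = 0.0124), which is under the fold threshold. Per doubling of *Th*, *En1* changed by 0.51, *Nr4a2* by 0.74 and *En2* by 0.08, against 0.91 for *Pitx3* and 1.40 for *Lmx1a*, so members of 1 list differed in how steeply they followed *Th*.

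Genes that mark subtypes of DA neurons were less uniform. Of 6 genes known from the ventral SN, 4 were higher (median 0.42), against 4.51% of all genes tested. *Sncg* (gamma-synuclein) was 249 to 437 TPM in the high and 76.8 to 263 TPM in the low *Th* mice, with a log2 fold change of 0.64 (SE 0.0779, edgeR adjusted p = 2.87e-07). *Ndnf*, a secreted neurotrophic protein, differed by 0.87 and *Igf1*, a growth factor, by 0.52. *Aldh1a1*, a retinaldehyde dehydrogenase of the ventral tier, was abundant and differed less. The low end, median and high end of *Aldh1a1* were 485, 663 and 852 TPM in the 24 high *Th* mice and 365, 534 and 624 TPM in the 24 low *Th* mice. Its log2 fold change was 0.33 (SE 0.0588, edgeR adjusted p = 7.71e-05), with 0.10, 0.34 and 0.48 in batches 1, 2 and 3, and 0.27 per doubling of *Th*. *Sox6* (0.14) and *Anxa1* (0.33, edgeR adjusted p = 0.146) were not called. *Anxa1* had values of opposite sign in the batches, -0.33, 0.45 and 0.77 in batches 1, 2 and 3, and was called at 0.51 without the 6 mice (edgeR adjusted p = 0.00303).

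Of 9 genes known from DA neurons of the dorsal SN and the ventral tegmental area, 5 were higher (median 0.69). Without the 6 mice, 7 of 9 were higher (median 0.99). Over all genes tested, 4.51% were called higher, and 779 of 18292 without those mice. *Calb1* (calbindin), also expressed by other neurons, had one of the largest log2 fold changes, 1.33 (SE 0.249, edgeR adjusted p = 1.33e-04). Its lowest, median and highest levels were 11.0, 42.3 and 85.7 TPM in the 24 high *Th* mice and 1.68, 11.9 and 65.0 TPM in the 24 low *Th* mice. The 2 ranges overlapped in every group. *Tacr3*, a tachykinin receptor, differed by 1.21, *Grp*, a neuropeptide, by 1.14, *Adcyap1*, another neuropeptide, by 1.01 and *Cck*, cholecystokinin, by 0.50. *Cck* had -0.19 in PFF 11% O2 mice alone, where the shallow library reached 239.9 TPM. *Otx2* (0.07), *Lpl* (0.21), *Neurod6* (0.44) and *Vip* (0.69, edgeR adjusted p = 0.0638) were not called. Without the shallow library (PFF 11% O2, replicate 2) *Lpl* (0.36), *Neurod6* (0.64), *Vip* (0.97) and, of the ventral genes, *Anxa1* (0.45) were called higher.

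Of the 5 enzymes that break dopamine down 1 was called, *Aldh1a7* (0.63), whose reads may be split with its close paralogue *Aldh1a1*. *Maoa* (0.16), *Maob* (-0.09) and *Aldh2* (-0.15) were within the fold threshold. Of 12 genes of inherited Parkinson's disease, 1 was called, *Dnajc6* (auxilin, which uncoats clathrin vesicles), with 159.1 to 249 TPM in the high and 102 to 181.1 TPM in the low *Th* mice and a log2 fold change of 0.30. It fell under the fold threshold without the 6 mice, and the median of the list was 0.08. For scale, 9.84% of all genes tested were called in either direction, and 1 of 12 is not above that share.

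Markers of other neurons moved in part, and 4.51% of all genes tested were called higher. Of 7 tested genes of the subthalamic nucleus and hypothalamus (of 9 listed), 4 were higher (median 0.82), and *Foxa1* among them is also a DA neuron gene. *Barhl1*, a homeodomain factor, differed by 1.39 at levels of 0.122 to 4.90 TPM in the high and 0.0564 to 1.78 TPM in the low *Th* mice, and *Pmch*, a hypothalamic neuropeptide gene, by 0.82. *Slc17a6*, a glutamate transporter of subthalamic neurons and of some midbrain neurons, was higher by 0.90 (13.1 to 104 TPM in the high and 4.07 to 73.4 TPM in the low *Th* mice). Its values were 1.07, 0.13 and 1.21 in batches 1, 2 and 3. Of 3 tested genes of the habenula, red nucleus and interpeduncular nucleus, *Chrna3* (0.80) and *Chrnb4* (0.40), both nicotinic receptor subunits, were higher. The residual r of *Chrna3* with *Th* was 0.976, beside 0.971 for *Drd2* and 0.984 for *Ntsr1*, so it rose and fell with the DA neuron genes. *Chrnb4* was not called without the 6 mice (0.29) or without 1 of 3 mice (PFF 11% O2 replicate 5 at 0.37, monomer 21% O2 replicate 10 at 0.37 or monomer 11% O2 replicate 8 at 0.37). Of 2 tested genes of acetylcholine neurons, *Chat* was higher (0.68) at levels of 0.153 to 1.12 TPM in the high and 0 to 2.05 TPM in the low *Th* mice. The part of neighbouring nuclei in the differences of the dopamine genes was not tested.

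Of the 32 tested genes in 6 other neuronal lists (GABA, pan-neuronal, striatal, cortical, thalamic and serotonin) 4 (12.5%) were called, against 9.84% of all genes tested in either direction. Of 5 genes of GABA neurons, the main cells of the pars reticulata, none was higher and 1 was lower, *Pvalb* (parvalbumin), at -0.30 (181.1 to 811 TPM in the high and 338 to 878 TPM in the low *Th* mice). All 5 had negative values (median -0.12), and without the 6 mice *Gad1*, an enzyme of GABA synthesis, was also lower (-0.26). Of 10 pan-neuronal genes 2 were higher, the synaptic genes *Syt1* (0.44) and *Stx1a* (0.37), and the median was 0.07. Without the 6 mice *Rbfox3*, a neuronal splicing factor, was called too (0.28). Of striatal genes, 1 of 5 was lower, *Ppp1r1b* (DARPP-32), at -0.36, and the median was -0.36. Without the 6 mice *Ppp1r1b* was called lower (-0.30) and *Penk*, which encodes enkephalins, was called higher (0.44 in place of 0.21), with a median of -0.12. *Slc17a7*, the glutamate transporter of cortical neurons, was called lower at -0.93, but at -0.31 it was not called without the shallow library of PFF 11% O2, which held 150.01 TPM. Of 5 tested cortical and hippocampal genes, 5 thalamic genes and 2 tested serotonin neuron genes none was called, with or without the 6 mice, and the cortical and hippocampal median was -0.31 with them and -0.03 without. No gene of noradrenaline neurons was high enough to be tested, with summed levels of 0 to 0.624 TPM.

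Microglial genes and some astrocyte genes were lower in high *Th* mice by small amounts. Of all genes tested, 5.33% were called lower, and 450 of 18292 without the 6 mice left out. Of 10 microglial genes all had negative values and 6 were called (median -0.28), and without the 6 mice 8 were called at the same median. The summed level of the list had a lowest, median and highest value of 833, 1638 and 2035 TPM in high and 1051, 1995 and 2517 TPM in low *Th* mice. *C1qa*, a complement subunit, was 195 to 554 TPM in the high and 299 to 649.8 TPM in the low *Th* mice (log2 fold change -0.30, SE 0.0636, edgeR adjusted p = 4.71e-04), and *Trem2* (-0.31), *Tmem119* (-0.29) and *C1qc* (-0.29) were close to it. Of 10 astrocyte genes all had negative values and 3 were called (median -0.19), which were *Gfap* (-0.38), *Gjb6* (-0.36) and *Sox9* (-0.25). Without the 6 mice *Gjb6* (-0.22) and *Sox9* (-0.22) were not called and *Aqp4*, the astrocyte water channel, was (-0.29). *Sox9* was at the fold threshold and was not called without 1 of 3 mice (PFF 11% O2 replicate 2 at -0.24, monomer 11% O2 replicate 9 at -0.24 or replicate 12 at -0.24). None of 10 oligodendrocyte genes was called (median -0.06), and their summed level was 8759, 10205 and 12275 TPM in high and 5626, 10608 and 15500.3 TPM in low *Th* mice. No member of these lists was at 0 in all mice. Because TPM and normalised counts are relative, more of one kind of RNA and less of another cannot be told apart.

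**Figure D3:**
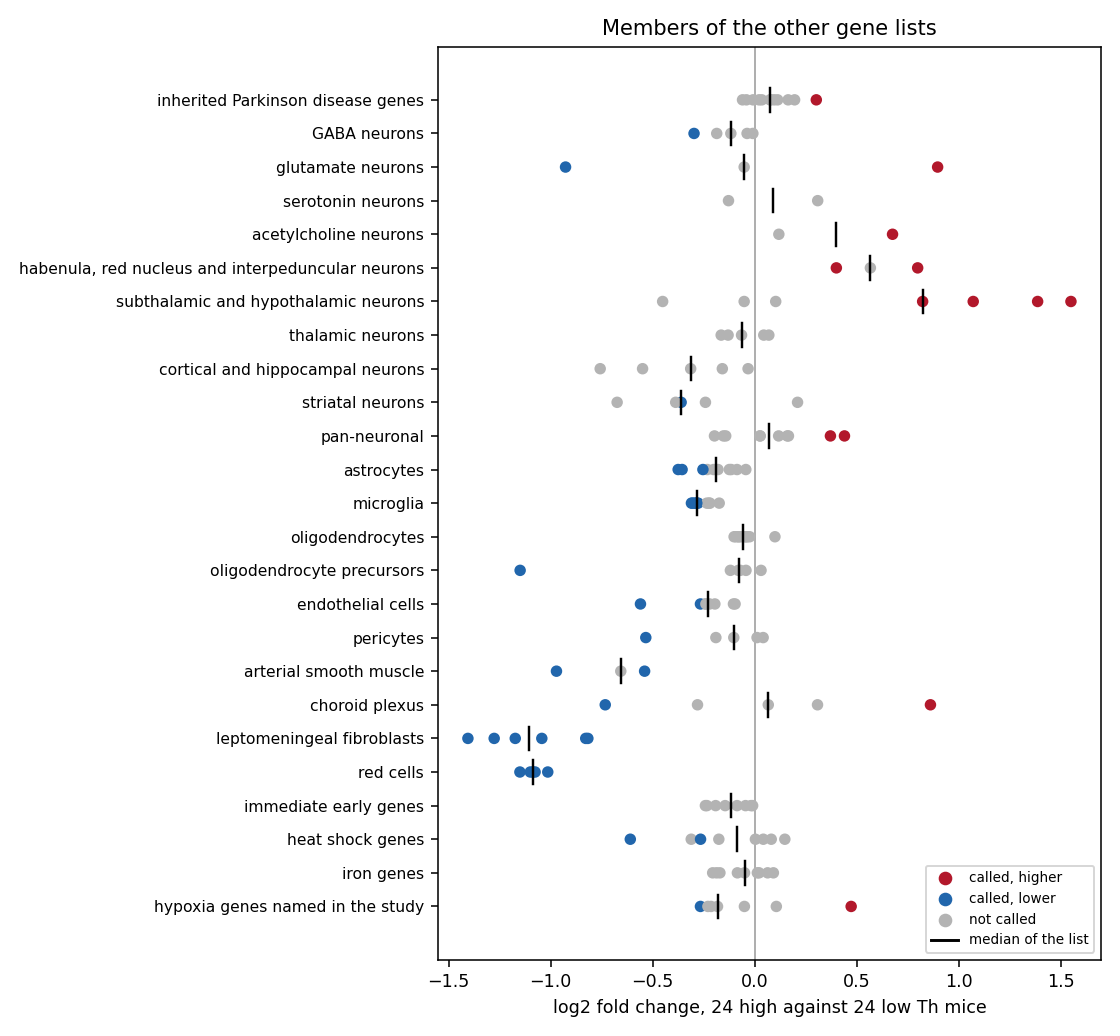
Log2 fold change between high and low *Th* mice (x axis) of tested genes in the lists of inherited disease genes, other neurons, glia, vessels, blood and responses (y axis), with red points for genes called higher, blue points for genes called lower, grey points for genes not called and a black bar for the median of each list. All microglial and astrocyte genes lie below 0 (medians -0.28 and -0.19), and leptomeningeal and red cell genes lie near -1.

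Genes of the meninges and of blood had the largest negative medians of the lists, and these were smaller without the mice left out. Over all genes tested, 5.33% were called lower, and 450 of 18292 without the 6 mice left out. All 6 leptomeningeal fibroblast genes were lower (median -1.11). Their summed level was 16.4, 35.4 and 68.2 TPM (lowest, median and highest) in high and 31.4, 50.4 and 577 TPM in low *Th* mice, and 31.4, 45.2 and 121 TPM in the 18 low *Th* mice without those 6. Without them 2 of 6 were called, the collagen genes *Col1a2* (-0.51 in place of -1.28) and *Col1a1* (-0.35 in place of -0.82), and the median was -0.38. *Igf2* (-1.41) and *Slc6a13* (-1.17) were not called then. All 5 red cell genes were lower (median -1.09), 3 of them without the 6 mice (median -0.45). Their summed level was 551, 1165 and 3629 TPM in high and 765, 1567 and 29686 TPM in low *Th* mice, of which the highest was the shallow library. Without that library alone, *Hbb-bs* was at -0.50, *Hba-a1* at -0.47, *Hba-a2* at -0.47 and *Hbb-bt* at -0.57, in place of -1.01, -1.09, -1.10 and -1.15. The globin genes are near copies of each other, and their reads may be split.

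Vascular lists depended on the same animals. Over all genes tested, 5.33% were called lower. Of 8 endothelial genes 2 were lower, *Cdh5* (-0.56) and *Kdr* (-0.27), of 5 pericyte genes 1, *Vtn* (-0.53), and of 3 tested arterial smooth muscle genes 2, *Acta2* (-0.97) and *Myl9* (-0.54). None of these 5 was called without the 6 mice (-0.21, -0.17, -0.22, -0.21 and -0.12). *Acta2*, *Myl9* and *Kdr* were each no longer called without any 1 of 3 mice. These were PFF 11% O2 replicate 5 (-0.52, -0.30 and -0.21), monomer 21% O2 replicate 10 (-0.88, -0.49 and -0.23) and monomer 11% O2 replicate 12 (-0.77, -0.46 and -0.25). Of 6 genes of oligodendrocyte precursors, *Bmp4* was lower (-1.15, and -0.34 without the 6 mice, not called). Of 5 tested choroid plexus genes, *Clic6* was higher (0.86), and it was also called without the 6 mice (0.93). The residual r of *Clic6* with *Th* was 0.78. *Kl* was lower (-0.73) but not called without 1 of 4 mice (PFF 11% O2 replicate 2 at -0.67 or 5 at -0.44, monomer 21% O2 replicate 10 at -0.70 or monomer 11% O2 replicate 12 at -0.65). The part of dissection, blood and meninges in the differences of the dopamine genes was not tested, and the log2 fold changes of *Slc6a3*, *Slc18a2* and *Ddc* without those 6 mice are given above.

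**Figure D4:**
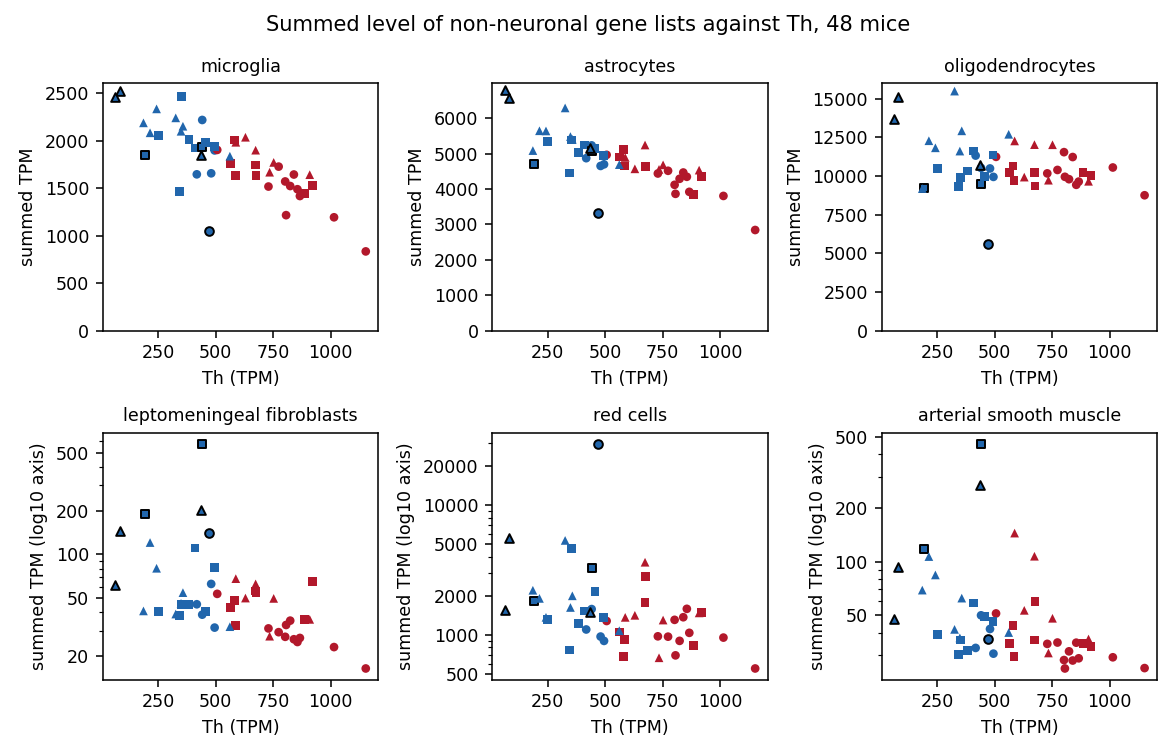
Summed TPM of the genes of 6 lists (y axes, from 0 in the upper and on log10 axes in the lower row) against *Th* in TPM (x axes) in the 48 mice, with high *Th* mice in red, low *Th* mice in blue, circles, squares and triangles for batches 1, 2 and 3 and a black outline for the 6 mice left out. Outlined mice reach 577 TPM of leptomeningeal genes, against at most 121 TPM in the other low *Th* mice, whereas microglial sums run from 833 to 2517 TPM.

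Of the 32 tested genes in the immediate early, iron, heat shock and hypoxia lists 4 (12.5%) were called, a share near the 9.84% of all genes tested. None of 8 immediate early genes was called (median -0.12, and -0.0039 without the 6 mice), nor any of 9 tested iron genes (median -0.05). Of 8 heat shock genes, *Hspb1* (-0.61) and *Bag3* (-0.27) were lower, and neither was called without the 6 mice. Of 7 genes of the hypoxia response, *Slc16a3*, a lactate exporter, was higher by 0.47 (SE 0.0855, edgeR adjusted p = 7.84e-05) and *Kdr* was lower, as given above.

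Outside the lists, 776 genes were higher and 936 were lower, and 749 and 893 of them had the same sign in all 3 batches. They were called on the 3 batches together, so the shared sign is a description with no test. The 10 with the smallest p among those higher were *Agk* (0.34), *Tmem255a* (0.76), *Fam184a* (0.45), *Kcnn3* (0.68), *Vwce* (1.20), *Rreb1* (0.68), *Oprk1* (0.77), *Greb1* (0.74), *Tll1* (0.90) and *Cadps2* (1.13). *Kcnn3* is a calcium-activated potassium channel that shapes the firing of DA neurons, *Oprk1* the kappa opioid receptor, *Cadps2* a priming factor of dense-core vesicles and *Agk* a lipid kinase of mitochondria. The levels of *Kcnn3* (lowest, median and highest) were 20.9, 28.6 and 45.1 TPM in the 24 high *Th* mice and 9.69, 18.0 and 27.1 TPM in the 24 low *Th* mice. The low end, median and high end of *Cadps2* were 37.3, 67.3 and 108 TPM in the 24 high *Th* mice and 4.80, 29.0 and 52.5 TPM in the 24 low *Th* mice. *Agk* differed by little but evenly, with 14.7 to 21.9 TPM in the high and 10.1 to 15.6 TPM in the low *Th* mice and an SE of 0.0361 (edgeR adjusted p = 6.10e-08). *Tmem255a* shares 474 of 4490 exon bases with *Zbtb33* on the opposite strand.

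The 10 with the smallest p among those lower were *Kctd12* (-0.31), *Msn* (-0.32), *Ptpn6* (-0.36), *Nfe2l2* (-0.33), *Lyz2* (-0.72), *Yap1* (-0.38), *Man1a* (-0.34), *Egfr* (-0.27), *Apobec3* (-0.37) and *Hk2* (-0.31). *Lyz2* and *Ptpn6* are genes of myeloid cells, *Yap1* and *Egfr* are expressed by astrocytes and their precursors, *Nfe2l2* encodes the transcription factor Nrf2 and *Hk2* is a hexokinase. The lowest, median and highest levels of *Lyz2* were 21.0, 59.3 and 89.0 TPM in the 24 high *Th* mice and 51.1, 88.0 and 311 TPM in the 24 low *Th* mice. The levels of *Kctd12* (lowest, median and highest) were 35.01, 54.1 and 64.2 TPM in the 24 high *Th* mice and 51.7, 67.9 and 75.9 TPM in the 24 low *Th* mice, with no overlap in 3 of 4 groups. No overlap in exactly 3 groups was seen in 20 of 18157 genes tested. *Kctd12* shares 3805 of its 6057 exon bases with *Gm26778* on the opposite strand. *Egfr* was not called without PFF 11% O2 replicate 5 (-0.25, under the fold threshold).

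Complete separation of high and low *Th* mice within groups was rare. In 5 of 18157 genes (0.0275%) the 6 high and the 6 low *Th* mice did not overlap in any of the 4 groups, and all 5 were higher. They were *Sncg*, *Ndnf*, *Vwce*, *Tll1* and *Col25a1*. *Col25a1*, a transmembrane collagen, had a log2 fold change of 0.86 and was named after its values were seen, as it was in no list. The low end, median and high end of *Vwce* were 3.05, 4.58 and 7.28 TPM in the 24 high *Th* mice and 0.286, 2.23 and 3.14 TPM in the 24 low *Th* mice. The lowest, median and highest levels of *Ndnf* were 24.3, 34.6 and 54.9 TPM in the 24 high *Th* mice and 4.10, 19.5 and 27.5 TPM in the 24 low *Th* mice. In another 20 genes there was no overlap in 3 groups.

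Whether the difference between high and low *Th* mice itself depended on the condition was tested as an interaction. No gene was called for the injection (0%, with 313 at an unadjusted p below 0.05) and none for O2 (0%, with 1045) by edgeR. DESeq2 called 1 gene for the injection, the pseudogene *Vdac3-ps1* (adjusted p = 0.0273), and none for O2. The difference in PFF minus that in monomer mice was -0.43 for *Slc6a3* (SE 0.276), -0.47 for *Slc18a2* (SE 0.272) and -0.43 for *Ddc* (SE 0.229), none past the test (edgeR adjusted p = 1.00). The difference at 11% minus that at 21% O2 was 0.22 (SE 0.276), 0.32 (SE 0.271) and 0.23 (SE 0.228), likewise not past it (edgeR adjusted p = 0.906, 0.854 and 0.879). For O2, the named genes with the smallest p were *Cmklr1* (-0.50), a chemerin receptor, and *Star* (0.29), a cholesterol carrier (edgeR adjusted p = 0.826 for both). With SEs of this size, unequal differences of about the same size as these were not detectable.

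Between conditions, where the ranking within groups was not used, *Th* did not pass the test. The log2 difference of PFF from monomer mice was 0.07 (SE 0.296, edgeR adjusted p = 0.939) at 21% and 0.22 (SE 0.299, edgeR adjusted p = 0.916) at 11% O2. That of 11% from 21% O2 was -0.09 (SE 0.343, edgeR adjusted p = 0.910) in monomer and 0.06 (SE 0.286, edgeR adjusted p = 0.974) in PFF mice. *Slc6a3*, *Slc18a2* and *Ddc* lay between -0.19 and 0.20 in the 4 comparisons, none past the test. The median *Th* of the groups was 528 TPM in monomer 21% O2, 571 in PFF 21% O2, 474 in monomer 11% O2 and 549.6 TPM in PFF 11% O2 mice. In the same fits, of 18158 genes 593 (3.27%) were called between PFF and monomer mice at 21% O2 and none (0%, with 1270 at an unadjusted p below 0.05) at 11% O2. For 11% against 21% O2, 962 (5.3%) were called in monomer and 127 (0.699%) in PFF mice. Monomer 21% O2 mice were from batches 1 and 2 and monomer 11% O2 mice from batches 1 and 3, so that comparison leaned on batch 1 for its within-batch part.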

How the data were processed

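RNA of the SN was sequenced as poly(A) libraries, 1 per mouse. The submitters' processing notes name STAR 2.7.5a, Picard 2.21.9, GATK 4.1.5.0-9, featureCounts 2.0.1 and Scanpy 1.8.1 with mm10, and the methods give GENCODE vM24. Duplicate reads were removed before counting, which used no strand. The authors deposited raw counts and TPM of 55385 genes in 48 mice, and batch-corrected counts of 19601 genes in 42. Totals were 3134594 to 17120921 counts, so low genes are least precise in the shallowest library. Mice were ranked by deposited TPM within groups taken from the labels. Deposited counts were tested with edgeR 4.0.16 (TMM, filter on low counts by group, group and batch as terms, *Th* left out), run in R 4.3.3. The fit was checked on simulated counts that held no group, batch or outlier effects, so the check does not cover these. DESeq2 1.42.0 and limma 3.58.1 were alternatives. Permutation tests used scipy 1.17.1. No 2 libraries of the same group agreed within sampling noise, and libraries of different groups were not compared in this way. Members and gene lists were chosen with earlier results of these data known.

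Genes were named by rule: *Th*, *Slc6a3*, *Slc18a2* and *Ddc*, members of the dopamine lists, up to 4 called members of each other list, the 10 in each direction outside the lists with the smallest p and 1 sign in 3 batches, the 8 most like *Th*, and the 3 with the smallest p of each interaction. Predicted genes were counted but not named by this rule, and some items that it would name are not reported here. *Gad1*, *Rbfox3*, *Penk* and *Aqp4* were named after their values were seen. Gene positions are from GENCODE vM21 on GRCm38, where 100 of 103 genes chosen by this rule had the same versioned ID. The alternatives changed the tool, normalisation, filter, mice, batch term, ranking and unit. Removing each of the 6 mice in turn, and adding the division as a term between conditions, were chosen after the data were seen. Mice are separate animals, so p-values measure the spread between animals.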

Additional observations from a re-analysis of the deposited data

Results flagged for a closer look

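In each set of 6 mice (high or low *Th* within a group), the highest or lowest value was compared with the other 5 by Dixon's criterion. In independent sets of normal values chance gives about 1 in 20, but these sets share libraries, so that rate is no measure of excess. Of 72 sets 11 held such a value. The shallow library of PFF 11% O2, replicate 2, a low *Th* mouse, stood apart in 4 of them, with 3134594 total counts (13265802 to 17005846 in the other 5), 22797 genes with a count, 6.99% of counts on mitochondrial genes and 29686 TPM summed over red cell genes. Another low *Th* mouse of that group, replicate 6, had 842 TPM of *Slc6a3* against 617 to 679 in the others, and replicate 5 had 577 TPM of leptomeningeal fibroblast genes against 40.6 to 141. The low *Th* mouse replicate 10 of monomer 21% O2 had 191.04 TPM of the latter genes against 38.1 to 81.6. Among high *Th* mice, PFF 11% O2 replicate 1 had 4.62% of counts on mitochondrial genes against 3.27% to 3.68%. Red cell genes summed to 2827 TPM in PFF 11% O2 replicate 7, 1772 TPM in PFF 21% O2 replicate 6 and 3629 TPM in monomer 11% O2 replicate 6, all high *Th* mice.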

How the results depend on the processing

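The count of 1787 genes called was within 1.5 times under DESeq2 (1830), limma (1351 to 1658), other size factors, no filter, protein-coding genes alone, library size as a term, *Th* ranked within batch too, ranking by *Slc6a3*, *Slc18a2* and *Ddc*, and the 4 highest against the 4 lowest mice. It was 2514 with no batch term, and 1607 to 1859 when each of the 6 mice was removed in turn. With fewer mice or another measure it was 961 on batch-corrected counts of 42 mice, 0, 11 and 1144 in batches 1, 2 and 3 alone, 547 in monomer 11% O2, 0 in monomer 21% O2, 65 in PFF 11% O2 and 0 in PFF 21% O2 mice alone, 1185 with *Th* as a continuous term and 4139 with no fold threshold. The 3 counts of 0, by edgeR, came with 2266 (batch 1), 2433 (monomer 21% O2) and 1573 (PFF 21% O2) genes at an unadjusted p below 0.05. Of the 91 called genes chosen by the naming rule, 91 kept their direction under all 21 alternatives on mice of all groups and 47 were called in each. In subsets of mice, *Cck* (-0.19) and *Stx1a* (-0.010) in PFF 11% O2 alone and *Kdr* (0.039) in batch 1 alone changed sign. DESeq2 called 1 gene in place of 0 for the injection interaction. The small differences of *Th* between conditions changed sign for PFF against monomer at 21% O2 without the 6 mice (-0.030) and with the replicate block (-0.0033), at 11% O2 on corrected counts (-0.045), and for 11% against 21% O2 in monomer mice without the 6 (0.052) and on corrected counts (0.19), and the difference in total counts became -198899.9 without the 6. The cause was not tested. The methods state that mice were matched across treatment groups by weight, age, delivery date and, where possible, cage. The labels tie no animals by replicate number and do not give that matching, so it could not be used. Among 72 pairs of mice with the same number the mean r was 0.0966 after group (37 over 0.1) and -0.0225 after group and batch (19 over 0.1), so the numbers were not taken as pairs. With the replicate block 1253 genes were called, 1200 of them among the 1787. Fold changes in genes under 1 TPM are limited by depth.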

Other observations

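The gene whose level ran most opposite to that of *Th* over the 48 mice, among 19814 with a mean of at least 1 TPM, was S100a1, a calcium-binding protein gene, with a residual r of -0.79. Its log2 fold change of -0.18 between high and low *Th* mice was under the fold threshold. When the division into high and low *Th* mice was added as a term, after the data had been seen, 661 in place of 593 genes were called between PFF and monomer mice at 21% O2, 0 as before at 11% O2, 1261 in place of 962 between 11% and 21% O2 in monomer mice. Of the 48 mice, 40 stayed on their side when ranked within group and batch, and 44 when ranked by *Slc6a3*, *Slc18a2* and *Ddc*.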
